A study of Ovis aries with 15 samples.

Results

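The genes described here are 37 genes of the mesenchymal cells of the liver and of the matrix they lay down, measured in liver of fetal sheep (Ovis aries). They were chosen by name for their known roles, with earlier results of these data known. Among them are fibrillar, basement membrane and microfibrillar collagens, small proteoglycans, elastic fibre genes and matricellular proteins. The others are cell surface receptors, pericyte and contractile genes, hepatic stellate cell genes, and genes of matrix turnover. All 37 were among the 31411 genes of the deposited table, and all 37 were among the 16977 genes with enough reads to test. The samples were liver at gestational day (GD) 100 in 4 libraries, GD124 in 5 libraries and GD144 in 6 libraries, which are 24 and 20 days apart. The labels give no genotype, treatment or sex, and all groups share the tissue and the poly(A) selection.

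Hepatic stellate cells lie between the hepatocytes and the sinusoidal endothelium, where they store retinoids, secrete growth factors for hepatocytes and act as the pericytes of the sinusoid. With portal fibroblasts and the smooth muscle of the vessels, they make most of the interstitial matrix of the liver. Fibrillar collagens give that matrix tensile strength, collagen IV and nidogen build basement membranes, collagen VI forms beaded microfibrils around cells, and fibulins, fibrillin and elastin assemble into elastic fibres.

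Library totals ran from 24215612 to 38247295 estimated counts, and levels are given as CPM, the usual counts-per-million unit, with library totals scaled by the trimmed mean of M values and with 3 counts as a floor of detection, or 0.0796 to 0.128 CPM depending on the library. The labels do not say that libraries of 1 stage are separate fetuses, and each p-value then reflects only how these libraries spread, which may be technical. Sample codes in the labels begin with different letters at different stages, and a cohort or batch that follows these codes cannot be told apart from the stage. GD100 replicates 2 to 4 stood apart from all other libraries in the share of genes with a fractional count, 10.6% to 10.8% against 5.09% to 6.2% elsewhere, GD100 replicate 1 included. Marker sums split GD100 in another way. Hepatocyte markers summed to 31580 and 36200 CPM in GD100 replicates 2 and 3, and to 78850 and 105100 CPM in replicates 1 and 4. Erythroid markers summed to 6841 and 5648 CPM in replicates 2 and 3, and to 3160 and 3056 CPM in replicates 1 and 4. The part of this split in the GD100 values of single genes was not tested. GD144 replicate 3 had the highest summed level of erythroid markers of its stage, 506 CPM against 60.4 to 106 CPM in the other 5 GD144 libraries. In these bulk samples, fewer cells of a type and less RNA per cell cannot be told apart.

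The matrix and mesenchymal genes were mostly higher late in gestation. Between GD144 and GD100, 22 of the 37 were higher and 3 lower by the quasi-likelihood test of edgeR at a Benjamini-Hochberg adjusted p under 0.05, which is 67.6% of them, against 55% of all genes tested. Of all genes tested, 27.1% were higher and 27.9% lower, so the calls over the whole table were near balance, while 59.5% of the 37 were higher and 8.11% lower. Their median log2 fold change was 0.83, and that of all genes tested was 0.03. In 11 of the 37 all 6 GD144 libraries were above all 4 GD100 libraries, and in 1, TIMP1, all were below, against 19.2% and 20.8% of all genes tested.

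**Figure D1:**
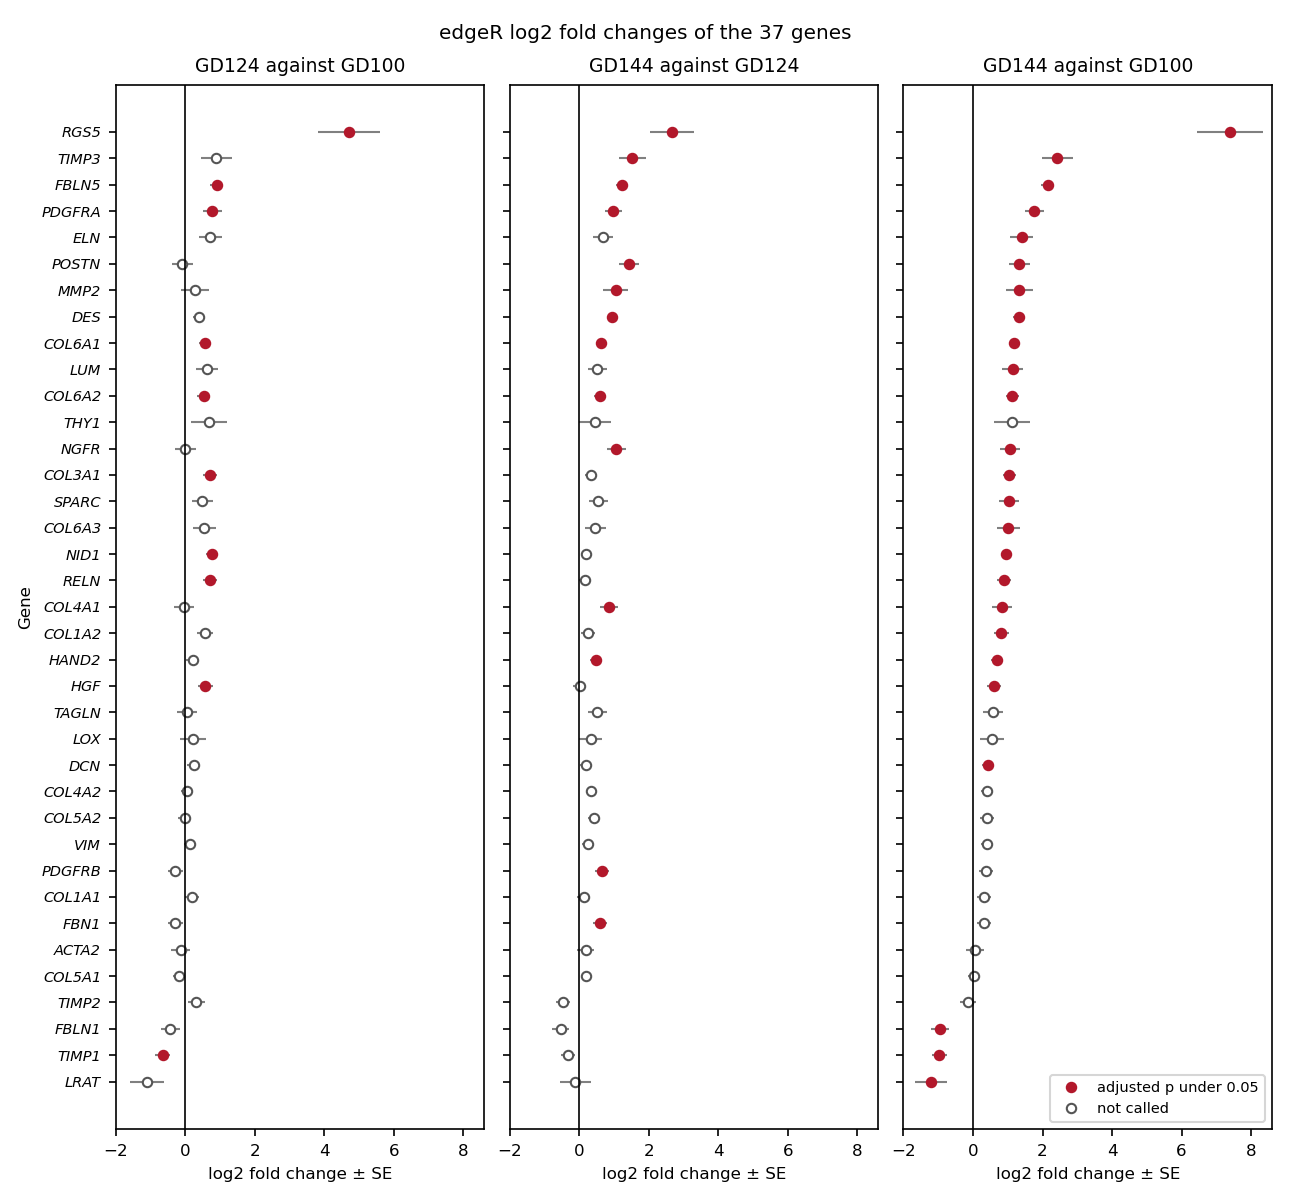
Log2 fold change of each of the 37 genes in GD124 against GD100, GD144 against GD124 and GD144 against GD100, with bars of 1 standard error from the edgeR fit of all 15 libraries; filled symbols passed the adjusted p threshold of 0.05. RGS5 at 7.38 lies far to the right of the other genes in GD144 against GD100, and LRAT, TIMP1 and FBLN1 are the 3 called genes left of 0.

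Fewer of the genes were called in the earlier interval than in the later one. At GD124 against GD100, 9 of the 37 genes were higher and 1 lower, or 27% of them, against 34% of all genes tested, with a median log2 fold change of 0.29 for the 37 and 0.01 for all genes. By direction, 24.3% of the 37 were higher and 2.7% lower, against 16.6% and 17.4% of all genes tested. At GD144 against GD124, 14 were higher and 0 lower by edgeR, or 37.8%, against 27.5% of all genes, of which 12.1% were higher and 15.4% lower, with medians of 0.46 and -0.01. At an unadjusted p under 0.05, 2 were lower in that interval, FBLN1 and TIMP2, and DESeq2 called 14 higher and 0 lower. The difference between the changes of both intervals was called by edgeR for 0 of the 37 genes, against 5.9% of all genes tested. In that fit of all libraries, no gene of the 37 was shown to change by different amounts in the earlier and the later interval. At an unadjusted p under 0.05 that difference held for 4 genes, NID1, FBN1, POSTN and PDGFRB, and DESeq2 called it for 1, POSTN. Without GD100 replicate 1 or without GD100 replicate 4, edgeR called it for POSTN too (edgeR adjusted p = 0.0448 and 0.0299).

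The 37 genes fell into several groups by which comparisons were called. These groups do not show that courses differed, since the difference between the intervals was called by edgeR for 0 of the 37 genes. COL6A1, COL6A2, FBLN5, PDGFRA and RGS5, 5 genes, were called higher in both intervals and over the whole period. A group of 7 (COL4A1, POSTN, NGFR, DES, HAND2, TIMP3 and MMP2) was called higher in the later interval and over the whole period, and 4 (COL3A1, NID1, HGF and RELN) in the earlier interval and over the whole period. COL1A2, COL6A3, DCN, LUM, ELN and SPARC, 6 genes, were called higher over the whole period alone, and FBN1 and PDGFRB in the later interval alone. No call was made in any of the 3 comparisons for 10 genes, COL1A1, COL5A1, COL5A2, COL4A2, LOX, THY1, ACTA2, TAGLN, VIM and TIMP2. Of the 37 genes, 33 had their highest stage mean at GD144, 1 at GD124 and 3 at GD100. Neither these peaks nor the groups of calls were counted over all genes tested.

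**Figure D2:**
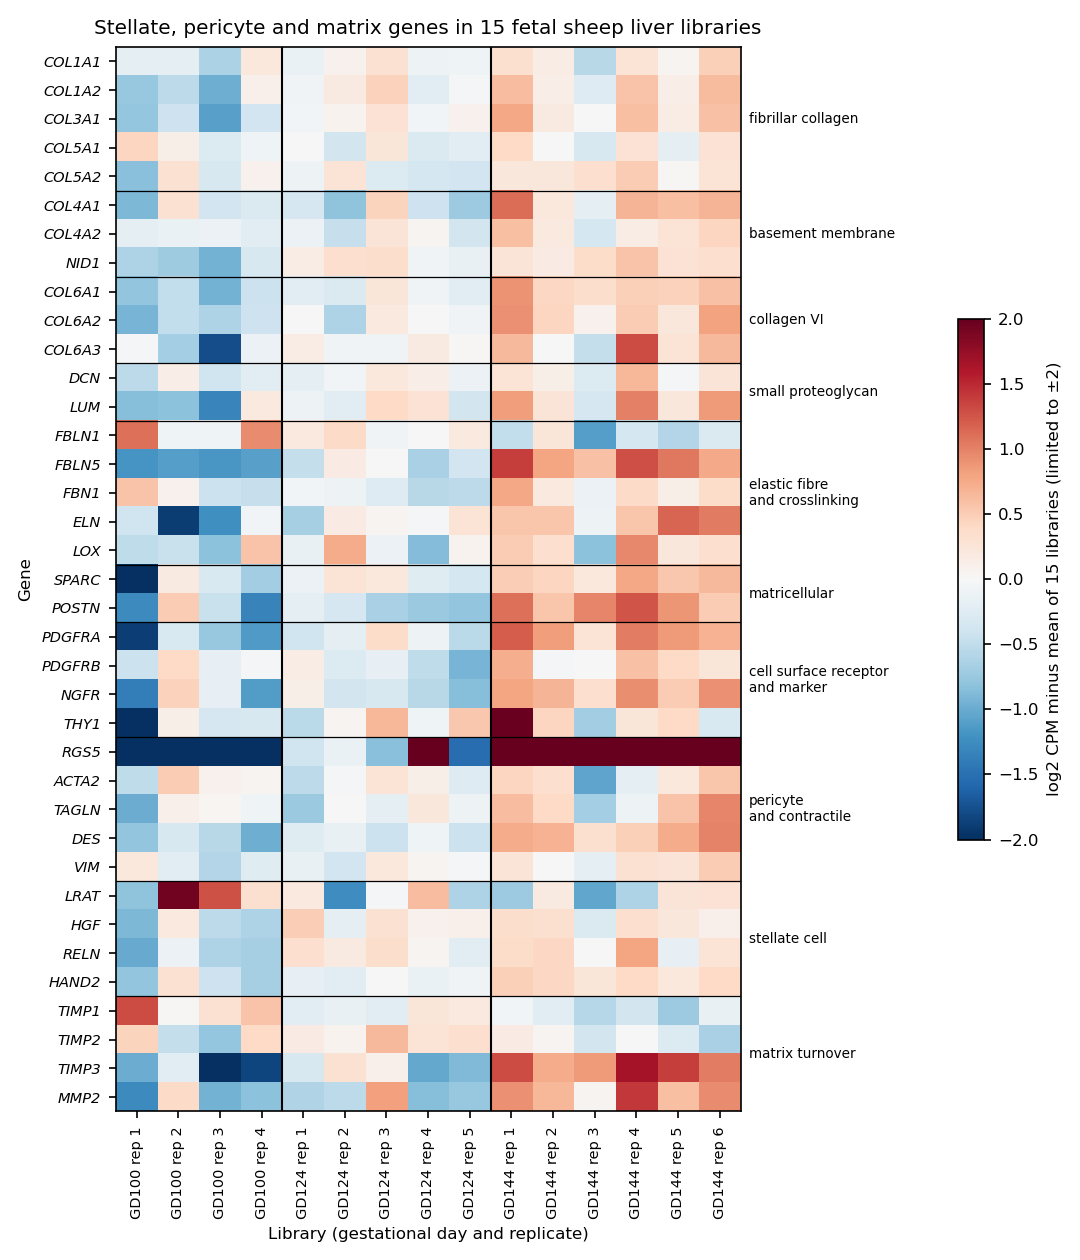
Log2 CPM (prior count of 2) of each gene minus its mean over the 15 libraries, with genes ordered by role and libraries by stage; red is above the mean, blue below, and colours are limited to 2 in either direction. Most genes turn red in the 6 GD144 libraries, with GD144 replicate 3 paler than the others, while FBLN1, LRAT and TIMP1 are reddest in GD100 libraries.

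Among the fibrillar collagens, 2 of 5 were higher at GD144 than at GD100, COL3A1 and COL1A2. COL3A1, the single chain of collagen III, had 252, 319.8, 202 and 329 CPM in the GD100 libraries, 414, 452, 524, 414 and 455 CPM in the GD124 libraries and a lowest value of 428, a median of 566 and a highest of 734 CPM at GD144. Every GD124 and every GD144 library lay above every GD100 library, while GD124 and GD144 overlapped. The log2 fold change was 0.71 ± 0.19 in the earlier interval (edgeR adjusted p = 0.01) and 1.05 ± 0.19 over the whole period (edgeR adjusted p = 0.000192).

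COL1A1 and COL1A2 encode both chains of collagen I, the main collagen of stroma. COL1A2 had 96.4, 114, 83.5 and 176 CPM at GD100, 156, 185, 225, 141 and 160.5 CPM at GD124 and 136 to 254 with a median of 211 CPM at GD144, and it was higher at GD144 than at GD100 by 0.82 ± 0.23 on the log2 scale (edgeR adjusted p = 0.00571). GD100 replicate 4 reached the range of the later stages, and the other 3 GD100 libraries lay below every later library. COL1A1 had 286, 280.4, 207 and 375 CPM at GD100, 295, 344, 397, 301 and 304 CPM at GD124 and 220.1 to 451 with a median of 374 CPM at GD144. The stages overlapped for COL1A1, whose log2 difference of 0.32 ± 0.20 between GD144 and GD100 was not called (edgeR adjusted p = 0.172).

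Ratios between partner genes within a library do not depend on the scaling of that library, and 6 such ratios were compared between stages, 18 tests in all. The ratio of COL1A1 to COL1A2 was 1.6 to 2.01 in the 6 GD144 libraries and 2.13 to 2.97 in the 4 GD100 libraries, with no overlap (log2 difference -0.52, exact two-sided permutation p = 0.00952, the smallest this design allows, adjusted p = 0.0476). COL1A1 also fell relative to COL3A1, with ratios of 0.514 to 0.738 at GD144 and 0.877 to 1.14 at GD100 (log2 difference -0.73, exact two-sided permutation p = 0.00952, adjusted p = 0.0476). That shift was already present at GD124, with ratios of 0.669 to 0.763 at GD124 and 0.877 to 1.14 at GD100 (log2 difference -0.52, exact two-sided permutation p = 0.0159, the smallest this design allows, adjusted p = 0.0476). The annotation places LOC114116862 over COL1A1, and that gene had 0.432 to 2.65 CPM, far below COL1A1 in every library.

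**Figure D3:**
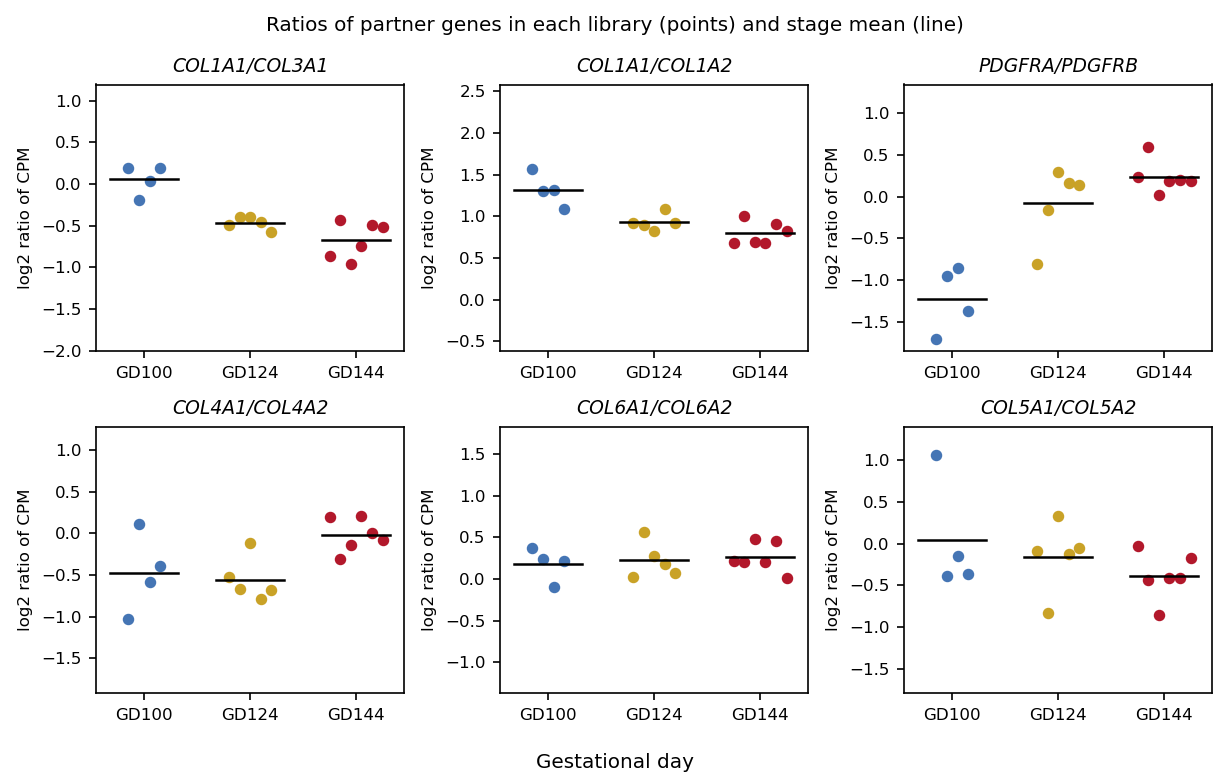
Log2 ratio of the CPM values of 6 pairs of partner genes in each library by stage; each point is 1 library and each line the stage mean. COL1A1 is lower relative to COL1A2 and to COL3A1 at GD144 than at GD100, PDGFRA is higher relative to PDGFRB, and the log2 ratio of COL6A1 to COL6A2 stays between -0.10 and 0.57.

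Collagen V, which joins collagen I in mixed fibrils and helps to set their diameter, was not called in any comparison. COL5A1 averaged 95.3 ± 20, 84.2 ± 15.2 and 97.4 ± 19.4 CPM at GD100, GD124 and GD144 (SD, n = 4, 5 and 6), with a log2 difference of 0.03 ± 0.18 between GD144 and GD100 (edgeR adjusted p = 0.895). COL5A2 averaged 95.2 ± 30.6, 94 ± 18.8 and 126 ± 13.7 CPM, a log2 difference of 0.40 ± 0.19 between GD144 and GD100 (edgeR adjusted p = 0.085). GD100 replicate 1 had the highest COL5A1 and the lowest COL5A2 of its stage.

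Of the 3 basement membrane genes, COL4A1 and NID1 were higher at GD144 than at GD100. NID1, the link between laminin and collagen IV networks, had 141, 132, 112 and 172 CPM at GD100, 239, 270.3, 274, 204 and 194 CPM at GD124 and 242 to 319 with a median of 266 CPM at GD144. All GD124 and GD144 libraries lay above all GD100 libraries and the later stages overlapped, and only the earlier interval was called. On the log2 scale GD124 exceeded GD100 by 0.76 ± 0.15 (edgeR adjusted p = 0.00175) and GD144 exceeded GD100 by 0.96 ± 0.15 (edgeR adjusted p = 5.49e-05).

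COL4A1 and COL4A2, whose products assemble together into collagen IV, did not move by equal amounts between GD124 and GD144. COL4A1 had 55.8, 128, 79.5 and 85 CPM at GD100, 82.7, 59.2, 142, 77.9 and 62.9 CPM at GD124 and 92 to 226 with a median of 162 CPM at GD144. GD124 replicate 3 stood far above the other 4 GD124 libraries, and GD144 replicates 2 and 3 lay within the range of both earlier stages. The later interval was called at 0.86 ± 0.27 (edgeR adjusted p = 0.0244), and GD144 against GD100 at 0.83 ± 0.29 (edgeR adjusted p = 0.0225). COL4A2 averaged 116 ± 3.49, 121 ± 24.7 and 154 ± 32.2 CPM at GD100, GD124 and GD144 and was not called between GD144 and GD100 at 0.41 ± 0.17 (edgeR adjusted p = 0.0555). The COL4A1 to COL4A2 ratio was 0.809 to 1.15 at GD144 and 0.58 to 0.919 at GD124 (log2 difference 0.54, exact two-sided permutation p = 0.013, adjusted p = 0.0476), with some overlap of libraries.

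Of the collagen VI genes, all 3 chains were higher at GD144 than at GD100. COL6A1 had 41.6, 51.5, 37.5 and 53.3 CPM at GD100, 62.4, 59.3, 85.7, 69 and 62 CPM at GD124 and 91.7 to 135 with a median of 99.9 CPM at GD144. Each stage lay wholly above the one before, and the log2 fold change was 0.56 ± 0.15 in the earlier interval and 0.64 ± 0.14 in the later one (edgeR adjusted p = 0.0114 and 0.00284). COL6A2 had 32.3, 43.6, 40.1 and 46.1 CPM at GD100, 61.2, 40, 70.8, 61 and 58.9 CPM at GD124 and 65.5 to 116 with a median of 85.4 CPM at GD144, and was 1.13 ± 0.19 higher at GD144 than at GD100 on the log2 scale (edgeR adjusted p = 8.51e-05). GD124 replicate 2 fell within the GD100 range for COL6A2, and GD144 replicate 3 within the GD124 range. The ratio of COL6A1 to COL6A2 did not pass the test in any comparison, with log2 differences of 0.04, 0.04 and 0.08.

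COL6A3, the long chain that completes the collagen VI molecule, was more scattered. It had 29.4, 18.7, 8.66 and 27.4 CPM at GD100, 33, 28.4, 28.5, 33.8 and 30.3 CPM at GD124 and 21.5 to 73.8 with a median of 41.4 CPM at GD144. GD100 replicate 3 was low and GD144 replicate 4 high, and the stages overlapped. COL6A3 was 1.01 ± 0.33 higher at GD144 than at GD100 on the log2 scale (edgeR adjusted p = 0.0172).

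Both small leucine-rich proteoglycans, which bind collagen fibrils and regulate their spacing, were higher at GD144 than at GD100. LUM (lumican) had 8.27, 8.41, 5.97 and 17.1 CPM at GD100, 14, 12.8, 19.7, 18.3 and 11.5 CPM at GD124 and 11.8 to 30.1 with a median of 22.3 CPM at GD144, a log2 fold change of 1.14 ± 0.30 for GD144 against GD100 (edgeR adjusted p = 0.00453). DCN (decorin) had 43.6, 69.3, 47.6 and 53.8 CPM at GD100, 55.7, 60.5, 73.3, 69.1 and 57.9 CPM at GD124 and 52.1 to 100.0 with a median of 71.9 CPM at GD144, a log2 fold change of 0.43 ± 0.17 (edgeR adjusted p = 0.0425). All stages overlapped for both genes, and the DCN call was lost under 14 of 24 other settings.

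The elastic fibre genes split in direction. FBLN5 (fibulin 5), which helps to lay elastin onto microfibrils, had 17, 17.9, 17.1 and 18 CPM at GD100, 27.8, 43.3, 38.6, 24.5 and 29.6 CPM at GD124 and 57.6 to 101 with a median of 73.5 CPM at GD144. The 3 stages did not overlap at all, and the GD100 libraries were nearly equal. The log2 fold change was 0.90 ± 0.19, 1.24 ± 0.17 and 2.14 ± 0.19 for GD124 against GD100, GD144 against GD124 and GD144 against GD100 (edgeR adjusted p = 0.00211, 8.83e-05 and 2.4e-07), which is 4.42-fold over the whole period.

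ELN (elastin), the elastic core protein, had 65.1, 22.8, 36.6 and 82.3 CPM at GD100, 54, 95.8, 88.5, 83.6 and 104 CPM at GD124 and 79.2 to 191 with a median of 126 CPM at GD144. GD100 replicates 2 and 3 were the lowest libraries, and GD144 replicate 3 was the only GD144 library below any GD100 library. ELN was 1.41 ± 0.33 higher at GD144 than at GD100 on the log2 scale (edgeR adjusted p = 0.00171). LOX (lysyl oxidase), which crosslinks collagen and elastin, averaged 4.83 ± 2.35, 5.64 ± 2.31 and 7.08 ± 2.5 CPM at GD100, GD124 and GD144 and was not called in any comparison.

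FBLN1 (fibulin 1), a partner of fibronectin and elastic fibres, went the other way. It had 25.4, 11.1, 11.1 and 22.8 CPM at GD100, 13.6, 15.4, 11.3, 11.8 and 13.5 CPM at GD124 and 5.49 to 14 with a median of 8.82 CPM at GD144. GD100 replicates 1 and 4 were well above all other libraries, and 1 GD144 library overlapped the earlier stages. FBLN1 fell by 0.95 ± 0.26 on the log2 scale between GD144 and GD100 (edgeR adjusted p = 0.00467). FBN1 (fibrillin 1), the main microfibril protein, was lowest at GD124, with 24 ± 8.54, 19.6 ± 3.09 and 29.9 ± 6.45 CPM at GD100, GD124 and GD144, and its call was confined to GD144 against GD124 (0.60 ± 0.20, edgeR adjusted p = 0.0296).

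**Figure D4:**
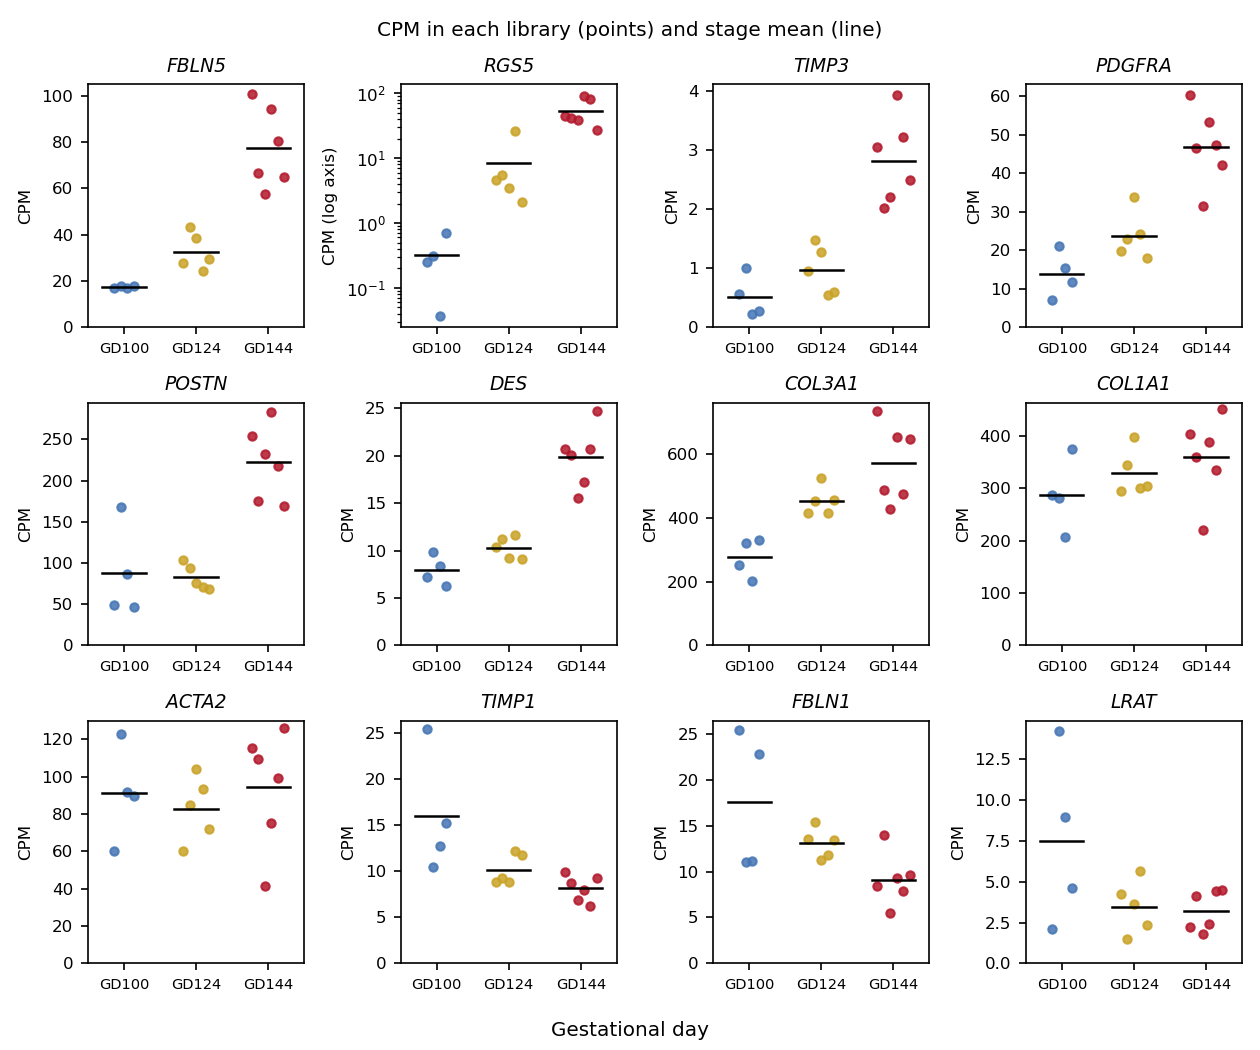
CPM of 12 of the genes in each library by stage; each point is 1 library, lines mark stage means, and the RGS5 axis is logarithmic while the others start at 0. FBLN5 and RGS5 separate all 3 stages, TIMP1 runs downwards, and LRAT is highest in GD100 replicates 2 and 3.

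Both matricellular genes were higher at GD144 than at GD100. POSTN (periostin), which binds collagen and integrins in remodelling tissue, had 49, 168, 86.9 and 47 CPM at GD100, 104, 93.5, 75.3, 71.1 and 68.9 CPM at GD124 and 169.6 to 283 with a median of 225 CPM at GD144. All 6 GD144 libraries lay above all earlier libraries, although GD100 replicate 2 came within a few CPM of the lowest of them. The rise was 1.43 ± 0.29 on the log2 scale for GD144 against GD124 (edgeR adjusted p = 0.00159), while GD124 against GD100 gave -0.09 ± 0.31 (edgeR adjusted p = 0.851).

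SPARC (osteonectin), a collagen-binding glycoprotein, had 98, 459, 330.5 and 249.5 CPM at GD100, 375, 489.6, 471, 344 and 318 CPM at GD124 and 472 to 691 with a median of 581 CPM at GD144. GD100 replicate 1 was the lowest library by a wide margin, and all GD144 libraries were above all GD100 libraries. SPARC was 1.04 ± 0.30 higher at GD144 than at GD100 on the log2 scale (edgeR adjusted p = 0.00699), and 2.58 higher when GD100 replicate 1 stood alone for its stage.

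The receptors for platelet-derived growth factor (PDGF), which drive growth and migration of mesenchymal cells, parted. PDGFRA had 7.04, 21.2, 15.3 and 11.8 CPM at GD100, 19.7, 23, 33.8, 24.4 and 18 CPM at GD124 and 31.7 to 60.4 with a median of 47 CPM at GD144. It climbed in both intervals, and the 6 GD144 libraries did not overlap the 4 GD100 libraries. The earlier interval gave a log2 fold change of 0.78 ± 0.27, the later one 0.98 ± 0.24 and the whole period 1.76 ± 0.27 (edgeR adjusted p = 0.0339, 0.00655 and 4.45e-05).

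PDGFRB, the receptor that marks stellate cells and pericytes, had 23.1, 41.1, 27.8 and 30.6 CPM at GD100, 34.6, 25.6, 27.7, 21.8 and 16.3 CPM at GD124 and 30.8 to 51.5 with a median of 39 CPM at GD144. GD124 held the lowest library, the stages overlapped, and only GD144 against GD124 was called (0.66 ± 0.20, edgeR adjusted p = 0.0205). The ratio of PDGFRA to PDGFRB was 1.02 to 1.51 at GD144 and 0.305 to 0.551 at GD100, with no overlap (log2 difference 1.46, exact two-sided permutation p = 0.00952, the smallest this design allows, adjusted p = 0.0476). GD124 against GD100 also separated, at 0.57 to 1.22 in GD124 and 0.305 to 0.551 in GD100 (log2 difference 1.15, exact two-sided permutation p = 0.0159, adjusted p = 0.0476).

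NGFR, the low-affinity neurotrophin receptor found on stellate cells and portal fibroblasts, had 19.7, 71, 46 and 23.7 CPM at GD100, 55.9, 39.7, 41.2, 35 and 28.6 CPM at GD124 and 64.8 to 98 with a median of 85.6 CPM at GD144. All GD144 libraries exceeded all GD124 libraries, and GD100 replicate 2 overlapped GD144. The rise was 1.07 ± 0.28 on the log2 scale for GD144 against GD124 (edgeR adjusted p = 0.00938), while the GD124 and GD100 means were 40.1 and 40.1 CPM. THY1, a surface protein of fibroblasts and some other cells, had 0.473, 2.48, 1.78 and 1.8 CPM at GD100, 1.55, 2.38, 3.66, 2.15 and 3.33 CPM at GD124 and 1.41 to 9.23 with a median of 2.88 CPM at GD144. Its highest value came from GD144 replicate 1 alone, and no comparison was called.

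RGS5, a regulator of G protein signalling used as a pericyte marker, changed more than any other of the 37 genes. It had 0.253, 0.314, 0.0364 and 0.704 CPM at GD100, 4.64, 5.58, 3.42, 26.5 and 2.09 CPM at GD124 and 27.3 to 92.4 with a median of 42.9 CPM at GD144. These GD100 values rest on 8, 9, 1 and 18 counts, so that GD100 replicate 3 was below the floor of 3 counts. The stages did not overlap, and GD124 replicate 4 came closest to the GD144 libraries.

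RGS5 gave a log2 fold change of 4.71 ± 0.89 in the earlier interval, 2.68 ± 0.64 in the later one and 7.38 ± 0.95 over the whole period (edgeR adjusted p = 0.0016, 0.00664 and 1.82e-05). Without GD124 replicate 4, the earlier interval gave 3.6 and the later 3.78, both still called. With GD100 replicate 1 standing alone for its stage, the log2 difference was 5.05 for GD124 against GD100 (edgeR adjusted p = 0.0917) and 7.73 for GD144 against GD100 (edgeR adjusted p = 0.0127). The size of a fold against so few counts is imprecise.

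Among the contractile and cytoskeletal genes, 1 of 4 was called. DES (desmin), the intermediate filament of muscle and of stellate cells, had 7.17, 9.88, 8.41 and 6.22 CPM at GD100, 10.4, 11.2, 9.2, 11.6 and 9.13 CPM at GD124 and 15.5 to 24.7 with a median of 20.4 CPM at GD144. All GD144 libraries were above all earlier ones, by 0.94 ± 0.15 on the log2 scale against GD124 and 1.32 ± 0.16 against GD100 (edgeR adjusted p = 0.000235 and 4.45e-06). Of the other skeletal muscle markers, TNNT3 was lower at GD144 than at GD100, ACTA1 was not called, and MYH1, MYH2, CKM and MYOD1 had too few counts to test, so DES was the only one of the 7 in the table that was called higher.

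ACTA2 and TAGLN, the smooth muscle actin and transgelin that mark smooth muscle and activated stellate cells, were not called in any comparison. ACTA2 had 60.4, 123, 91.6 and 89.4 CPM at GD100, 60.1, 84.8, 104, 93.5 and 72.2 CPM at GD124 and 41.4 to 126 with a median of 104 CPM at GD144. The stages overlapped almost fully, GD144 replicate 3 was the lowest of all 15 libraries, and the log2 difference between GD144 and GD100 was 0.05 ± 0.26 (edgeR adjusted p = 0.883). TAGLN averaged 23.8 ± 7.02, 24.6 ± 5.65 and 35.4 ± 12.8 CPM at GD100, GD124 and GD144, with 0.57 ± 0.29 between GD144 and GD100 (edgeR adjusted p = 0.103). VIM (vimentin), the intermediate filament of mesenchymal and blood cells, averaged 123 ± 28.3, 135 ± 20.5 and 161 ± 26.5 CPM, with 0.39 ± 0.17 between GD144 and GD100 (edgeR adjusted p = 0.0636).

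Of the 4 stellate cell genes, HGF, RELN and HAND2 were higher at GD144 than at GD100 and LRAT was lower. RELN (reelin), a secreted glycoprotein that marks stellate cells in rodent liver, had 40.9, 76.2, 53.6 and 51.7 CPM at GD100, 104, 92.8, 105, 85.8 and 70.3 CPM at GD124 and 73.7 to 143 with a median of 103 CPM at GD144. GD100 replicate 2 reached the lower end of the later stages, and the other GD100 libraries were lower. RELN rose in the earlier interval, by 0.72 ± 0.20 on the log2 scale for GD124 against GD100 (edgeR adjusted p = 0.0131), and was 0.88 ± 0.20 higher at GD144 than at GD100 (edgeR adjusted p = 0.00127).

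HGF, the ligand of the MET receptor on hepatocytes, had 13.3, 28.2, 17.1 and 16.1 CPM at GD100, 34.7, 21.7, 30.6, 26.1 and 26.4 CPM at GD124 and 20.1 to 31.6 with a median of 29.9 CPM at GD144. GD100 replicate 2 stood within the range of the later stages. HGF was 0.58 ± 0.20 higher at GD124 than at GD100 on the log2 scale (edgeR adjusted p = 0.0373) and gave 0.01 ± 0.18 for GD144 against GD124 (edgeR adjusted p = 0.965).

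HAND2, a transcription factor of mesenchymal lineages, had 5.56, 11.9, 7.28 and 6.06 CPM at GD100, 8.59, 8.28, 9.77, 8.87 and 9.17 CPM at GD124 and 11.2 to 13.5 with a median of 12.8 CPM at GD144. The GD144 libraries lay above all GD124 libraries, by 0.48 ± 0.17 on the log2 scale (edgeR adjusted p = 0.0425), and GD100 replicate 2 lay among them. The annotation places LOC105608584 over HAND2, with means of 7.08, 7.8 and 14.2 CPM at GD100, GD124 and GD144, and since it is not known whether strand was used in counting, reads of both genes may not have been separated.

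LRAT, the enzyme that esterifies retinol for storage in stellate cells, had 2.08, 14.2, 8.95 and 4.61 CPM at GD100, 4.23, 1.51, 3.62, 5.67 and 2.35 CPM at GD124 and 1.78 to 4.5 with a median of 3.27 CPM at GD144. GD100 replicates 2 and 3 were far above all other libraries, and GD100 replicate 1 lay in the range of the later stages. LRAT fell by 1.21 ± 0.46 on the log2 scale between GD144 and GD100 (edgeR adjusted p = 0.034), a call lost under 8 of 24 other settings. Among these were the fits without GD100 replicate 2 (edgeR adjusted p = 0.224), without GD100 replicate 3 (edgeR adjusted p = 0.0877), without GD144 replicate 1, 3 or 4 (edgeR adjusted p = 0.0679, 0.0639 and 0.068) and without a filter on low counts (edgeR adjusted p = 0.0505). With GD100 replicate 1 standing alone for its stage, the direction turned, to 0.64 (edgeR adjusted p = 0.472).

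Among the genes of matrix turnover, MMP2 and TIMP3 were higher at GD144 than at GD100, TIMP1 was lower and TIMP2 was not called. MMP2 (gelatinase A), which cleaves basement membrane collagen and denatured collagen, had 3.95, 12.6, 4.95 and 5.4 CPM at GD100, 6.32, 6.66, 17, 5.32 and 5.63 CPM at GD124 and 9.98 to 25.6 with a median of 16.6 CPM at GD144. GD100 replicate 2 and GD124 replicate 3 were each far above the rest of their stage and overlapped GD144. MMP2 was 1.34 ± 0.40 higher at GD144 than at GD100 on the log2 scale (edgeR adjusted p = 0.00917).

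The inhibitors of matrix metalloproteinases took different courses. TIMP1, a secreted inhibitor, had 25.4, 10.5, 12.7 and 15.3 CPM at GD100, 8.87, 9.25, 8.83, 12.2 and 11.8 CPM at GD124 and 6.18 to 9.91 with a median of 8.35 CPM at GD144. All GD144 libraries lay below all GD100 libraries, of which replicate 1 was by far the highest. TIMP1 fell by 0.97 ± 0.21 on the log2 scale between GD144 and GD100 (edgeR adjusted p = 0.00108) and by 0.65 ± 0.23 between GD124 and GD100 (edgeR adjusted p = 0.0345). ARAF, SYN1 and ZNF81 overlap TIMP1 in the annotation, with GD144 means of 45.4, 0.57 and 3.18 CPM and GD100 means of 30.5, 3.84 and 6.19 CPM. Reads of TIMP1 and of these genes may not have been separated, so the TIMP1 values are uncertain.

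TIMP3, an inhibitor that is held in the matrix, had 0.568, 1.01, 0.218 and 0.274 CPM at GD100, 0.947, 1.48, 1.27, 0.554 and 0.597 CPM at GD124 and 2.02 to 3.92 with a median of 2.77 CPM at GD144. The GD144 libraries lay above all earlier libraries, while GD100 and GD124 overlapped. TIMP3 was 1.53 ± 0.39 higher at GD144 than at GD124 on the log2 scale (edgeR adjusted p = 0.00726). TIMP3 overlaps SYN3 in the annotation, which had means of 3.09, 4.78 and 4.66 CPM at GD100, GD124 and GD144, so its values are uncertain. TIMP2, the inhibitor that also takes part in activating MMP2, averaged 56.4 ± 22.7, 70.4 ± 11.4 and 51 ± 10.3 CPM and had its highest mean at GD124, with no call.

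Some libraries were low or high for their stage across many of the genes. GD144 replicate 3 was the lowest GD144 library in 27 of the 37 genes and the highest in 0, and the median of its log2 deviations from the stage means was -0.41. Beside its high erythroid sum, it had 191 CPM of cycling cell markers, against 16.8 to 34 CPM in the other GD144 libraries. GD100 replicate 1 was the lowest of its stage in 17 genes and the highest in 7, GD100 replicate 2 was the highest in 18, and GD124 replicate 3 was the highest of its stage in 19. Without GD144 replicate 3, 29 of the 37 genes were called between GD144 and GD100 and 17 between GD144 and GD124. In the same fit 9039 and 4448 genes of the whole table were called in these comparisons, against 9342 and 4663 with all libraries.

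At GD100 the SD was 53.2% of the mean for SPARC and 64.6% for POSTN, against 12.8% to 20% at GD124 and GD144. FBLN5 and COL4A2 went the other way, at 3.07% and 3.01% against 20.5% to 24%. The fit of all libraries shares 1 estimate of spread per gene, so its p-values against GD100 are uncertain for such genes. Results that rest on the GD100 libraries were also taken with GD100 replicate 1 alone, which assumes that this stage varies as the other stages do. For the genes above that assumption did not hold, so p-values and calls of this fit are uncertain. Then 23 of the 37 genes were called between GD144 and GD100, 21 higher and 2 lower, with 21 shared with the 25 above, while 6795 genes of the whole table were called, against 9342 with all libraries. Between GD124 and GD100, 9 were called, 7 higher and 2 lower, with 5 shared with the 10 above, while 2906 genes of the whole table were called, against 5773 with all libraries. FBLN5, COL3A1 and COL6A1 were then not called between GD124 and GD100, with edgeR adjusted p = 0.0791, 0.0596 and 0.0634. The calls of ELN and COL6A3 between GD144 and GD100 were lost too (edgeR adjusted p = 0.0558 and 0.389).

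Other calls were lost under some of the 24 alternatives that were run, which changed the scaling, the filter, the tool or the libraries used. Between GD124 and GD100, COL6A2 lost its call under 14 of them, HGF under 13, PDGFRA under 9 and TIMP1 under 6, with edgeR adjusted p up to 0.195, 0.209, 0.144 and 0.184. COL6A1 lost the same call without GD100 replicate 3 and, as RELN did, with scaling by total counts, where the edgeR adjusted p was 0.0907 for COL6A1 and 0.0793 for RELN. Between GD144 and GD124, HAND2 and MMP2 lost their calls under 10 alternatives each, with edgeR adjusted p up to 0.113 and 0.106. COL4A1 (without GD124 replicate 2, 4 or 5), FBN1 (without GD124 replicate 4 or 5 or GD144 replicate 1 or 6) and PDGFRB (without GD124 replicate 4 or 5) also did so, with edgeR adjusted p up to 0.103, 0.0761 and 0.0571. With the replicate number as a block, COL4A1, PDGFRB and COL6A2 lost their calls in this interval as well (edgeR adjusted p = 0.0754 for COL6A2). Between GD144 and GD100, COL4A1 lost its call without GD100 replicate 1 or 3 and HGF without GD100 replicate 1, and both did so with scaling by total counts, with edgeR adjusted p up to 0.0866 and 0.0758. The replicate block ended this call of COL4A1 too.

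Together the 37 genes made up a share of all counts that ran between 0.208% and 0.326% in GD100 libraries, between 0.259% and 0.34% in GD124 libraries and between 0.307% and 0.511% in GD144 libraries. Their summed level was 2036 to 2831 CPM at GD100, 2721 to 3570 CPM at GD124 and 3119 to 4673 CPM at GD144, and no GD144 library was below any GD100 library. All 10 hepatic stellate cell markers were in the table, none was at 0, and their sum was 267 to 415 CPM at GD100, 277 to 391 CPM at GD124 and 366 to 524 CPM at GD144. LRAT, RELN, HAND2, HGF, NGFR, DES and PDGFRB of that list are among the 37 genes, so its sum and calls largely repeat results given above. Of these 10, 6 were higher and 2 lower at GD144 than at GD100, against 27.1% and 27.9% of all genes tested. The lower ones were LRAT and PTH1R, the parathyroid hormone receptor (-0.99 ± 0.15, edgeR adjusted p = 4.89e-05). All 6 pericyte and smooth muscle markers were present too, at 101 to 185 CPM, 121 to 197 CPM and 152 to 334 CPM at GD100, GD124 and GD144, with 3 higher and 3 not called. RGS5, ACTA2 and TAGLN of this list are among the 37 genes as well.

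**Figure D5:**
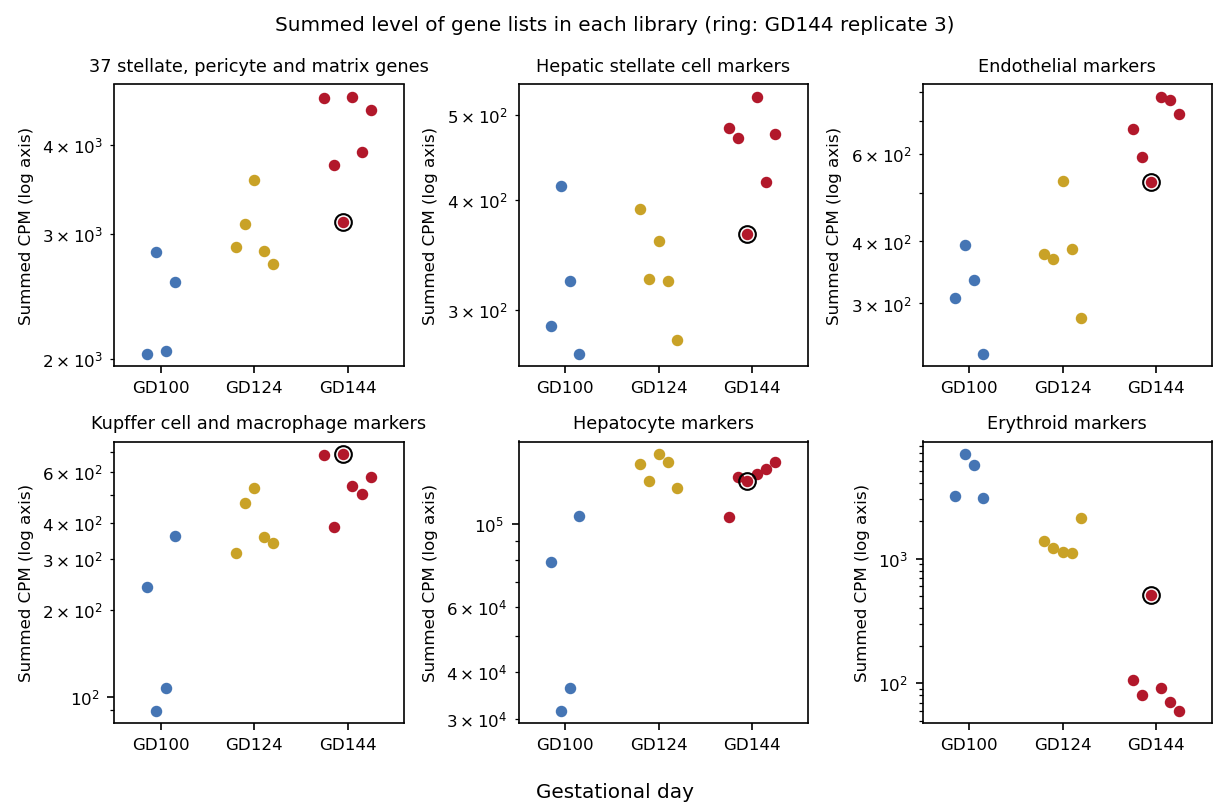
Summed CPM of the 37 genes and of 5 marker lists in each library by stage, on log axes; each point is 1 library and the ring marks GD144 replicate 3. The sum of the 37 genes is highest at GD144, the erythroid sum falls by stage to 60.4 to 506 CPM at GD144, and the endothelial sum reaches 527 to 781 CPM at GD144. Most of the hepatic stellate cell markers are themselves among the 37 genes.

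Markers of other cells changed with stage as well, where 27.1% of all genes tested were higher and 27.9% lower at GD144 than at GD100. The erythroid sum, 9 of 9 markers in the table, was 3056 to 6841 CPM at GD100, 1111 to 2120 CPM at GD124 and 60.4 to 506 CPM at GD144, and all 9 were lower at GD144 than at GD100. The endothelial sum (9 of 10 in the table) was 238 to 393 CPM, 281 to 530 CPM and 527 to 781 CPM at the same stages, with 7 of 9 higher at GD144 than at GD100. The Kupffer cell and macrophage sum (8 of 10) was 89.9 to 360 CPM, 316 to 528 CPM and 387 to 688 CPM, and 7 of 8 were higher at GD144 than at GD100. The hepatocyte sum (8 of 8) was 31580 to 105100 CPM, 124400 to 153500 CPM and 104100 to 146600 CPM, with 5 of 8 higher at GD144 than at GD100. Bile duct markers (6 of 7) summed to 15.9 to 51.5 CPM, 28.8 to 58 CPM and 28.1 to 52.8 CPM, with 1 of 6 higher at GD144 than at GD100. Megakaryocyte markers (5 of 6) summed to 126 to 162 CPM, 44.6 to 75.2 CPM and 119 to 185 CPM, but 4 of the 5 were lower at GD144 than at GD100, with a median log2 fold change of -4.54 over the 5, and 1 was higher, at 1.94. Cycling cell markers (8 of 8) summed to 781 to 1896 CPM, 310 to 713 CPM and 16.8 to 191 CPM, and all 8 were lower at GD144 than at GD100. The part of these shifts in the changes of the 37 genes was not tested.

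Further genes of the same pathways were taken from 11 lists of 207 genes, of which 203 were in the table and 195 were tested. At GD144 against GD100, 91 were higher and 24 lower, or 59% of those tested, against 55% of all genes. By direction, 46.7% of them were higher and 12.3% lower, against 27.1% and 27.9% of all genes. Their median log2 fold change was 0.53, against 0.03 for all genes. At GD124 against GD100, 34 were higher and 17 lower, or 26.2%, against 34% of all genes. At GD144 against GD124, 57 were higher and 13 lower, or 35.9%, against 27.5% of all genes. Several genes named below overlap other genes in the annotation, among them P4HA1, P4HA3, LOXL3, COL8A1, FBLN7, THBS1, SMAD3, PDGFD and ITGA1. Reads of such a gene and of those it overlaps may not have been separated.

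Collagen folding, processing and crosslinking genes gave 10 higher and 4 lower of 23 at GD144 against GD100 (60.9%, against 55% of all genes). P4HA1 and P4HA3, catalytic subunits of the prolyl hydroxylase that stabilises the collagen triple helix, were the leading rises at 2.88 ± 0.24 and 2.08 ± 0.28 on the log2 scale (edgeR adjusted p = 1.22e-07 and 1.31e-05). P4HA1 had 8.93, 8.76, 6.04 and 9.97 CPM at GD100, 27.9, 36.8, 38.3, 55.1 and 38.8 CPM at GD124 and 35.9 to 77.1 with a median of 65.2 CPM at GD144, with no overlap between GD100 and the later stages. LOXL3, a relative of lysyl oxidase, fell by 1.61 on the log2 scale, and ADAMTS14, a procollagen protease, by 1.06.

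Of 9 minor and fibril-associated collagens tested, 4 were higher and 4 lower, or 88.9%, against 55% of all genes. COL8A1 (1.44 ± 0.39) and COL12A1 (0.90 ± 0.32) led the higher ones, while COL11A1 and COL11A2, chains of a cartilage collagen, fell by 3.75 and 2.47 on the log2 scale. COL11A1 had 0.0531 to 0.224 CPM at GD144, near or below the floor of 3 counts, so the size of its fall is imprecise. Basement membrane genes gave 8 higher and 2 lower of 18, or 55.6%, near the 55% of all genes. The laminin chain LAMA2 was at 2.61 ± 0.55 and LAMA1, an early embryonic laminin chain, at -2.39 ± 0.35. PXDN, the peroxidase that crosslinks collagen IV, was -0.47 ± 0.18.

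Elastic fibre and microfibril genes gave 6 higher and 3 lower of 14, or 64.3%, against 55% of all genes. MFAP4 was at 1.52 ± 0.35, ADAMTSL2 at 1.42 ± 0.14, FBLN7 at -1.57 ± 0.41 and EMILIN2 at -1.50 ± 0.24. Matrix proteoglycans and glycoproteins gave 13 higher and 1 lower of 19, or 73.7%. MGP (matrix Gla protein, an inhibitor of calcification) had 15.2, 25.7, 10.3 and 27.8 CPM at GD100, 117, 72.8, 74, 131 and 81.3 CPM at GD124 and 92.6 to 189 with a median of 149.6 CPM at GD144, and FN1 (fibronectin, also a product of hepatocytes) was 2.28 ± 0.26 on the log2 scale at GD144 against GD100. All later libraries were above all GD100 libraries for MGP. The lower gene was THBS1 (thrombospondin 1) at -0.80 ± 0.17.

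Matrix proteases and inhibitors gave 11 higher of 19 at GD144 against GD100, and the other 8 were not called. That is 57.9% called, near the 55% of all genes, though 27.1% of all genes were higher. MMP7 (matrilysin), a protease of many matrix proteins, was 3.61 ± 1.10 on the log2 scale. It had 0.316, 0, 0 and 0.587 CPM at GD100 and 1.19, 1.76, 0.531, 0.432, 6.15 and 6.57 CPM at GD144. GD144 replicates 5 and 6 were far above the rest of their stage, and GD144 replicates 3 and 4 lay below GD100 replicate 4. The size of this fold is imprecise.

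The TGF-beta pathway, a main inducer of collagen synthesis in stellate cells, gave 10 higher and 2 lower of 18. That is 66.7%, against 55% of all genes. Its target CCN2 (connective tissue growth factor) was 2.61 ± 0.54 and its inhibitory SMAD7 1.89 ± 0.16 at GD144 against GD100 (edgeR adjusted p = 0.000732 and 1.43e-07). SMAD7 had 9.79, 8.69, 8.7 and 12.4 CPM at GD100, 16.7, 13.6, 16.6, 12.2 and 13.7 CPM at GD124 and 29.7 to 47.7 with a median of 34.8 CPM at GD144, with all GD144 libraries above the rest. TGFBI and SMAD3 fell by 1.09 and 0.84 on the log2 scale. The genes TGFB1 and TGFB3 were not called, and TGFB2, TGFBR1, TGFBR2 and TGFBR3 were higher.

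PDGF, retinoid and other stellate genes gave 15 higher and 3 lower of 28 at GD144 against GD100 (64.3%, against 55% of all genes). NTF3 (neurotrophin 3) was 2.22 ± 0.52 and the ligand PDGFD 1.32 ± 0.40. GFAP, an intermediate filament that marks stellate cells in rodents, had 8.93, 9.11, 7.53 and 3.09 CPM at GD100, 1.14, 0.72, 0.906, 2.84 and 2.05 CPM at GD124 and 0.0288 to 0.504 with a median of 0.133 CPM at GD144. All stages were apart, the lowest GD144 values were below the floor of 3 counts, and the log2 fold change was -5.20 ± 0.57 (edgeR adjusted p = 1.5e-06).

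Pericyte and smooth muscle genes gave 7 higher and 1 lower of 20, or 40%, below the 55% of all genes. MYH11, the smooth muscle myosin heavy chain, had 12.2, 21.5, 15.8 and 18.6 CPM at GD100, 30.2, 20.4, 33.8, 31.4 and 19.2 CPM at GD124 and 43.1 to 92.5 with a median of 75.3 CPM at GD144, a log2 fold change of 2.13 ± 0.24 (edgeR adjusted p = 1.91e-06). All GD144 libraries were above all earlier ones for MYH11, while the stages overlapped for ACTA2 and TAGLN. SYNPO2 was 1.70 ± 0.24 and TPM2 -1.14 ± 0.30, and the pericyte genes CSPG4, MCAM, NOTCH3 and KCNJ8 were not called.

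Matrix receptors gave 6 higher and 1 lower of 15 at GD144 against GD100, or 46.7%, below the 55% of all genes. The integrin chains ITGA9 and ITGA1, which bind matrix at the cell surface, were 2.34 ± 0.35 and 1.68 ± 0.18, while ITGB3, an integrin chain of platelets and megakaryocytes, was -2.65 ± 0.26. Portal fibroblast and mesothelial genes gave 2 higher (DPT at 1.57 ± 0.45 and CLEC3B at 0.66 ± 0.19) and 3 lower of 13, or 38.5%. Among the lower ones were the mesothelial MSLN at -3.19 ± 0.54 and CD34, also a marker of blood progenitors and endothelium, at -4.05 ± 0.28.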

How the data were processed

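RNA of fetal sheep liver was sequenced as paired-end libraries after poly(A) selection, per the labels' protocols. The deposited table gives estimated counts per gene, not normalised. DRAGEN is named in the submitters' processing notes. Version, build, annotation and strand handling were not given in the sources used here. Estimated counts were rounded, which changed no library total by over 27.9 reads (6.55% of values were fractional).

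Genes that passed filterByExpr were compared between stages by quasi-likelihood (edgeR 4.0.16, R 4.3.3) in a single robust fit of the 15 libraries, scaled by TMM (trimmed mean of M values). The common biological coefficient of variation was 34%. P-values were adjusted by Benjamini-Hochberg over all 16977 genes within each comparison, with a threshold of 0.05. A standard error is the log2 fold change divided by the square root of F. Alternatives were other scaling factors, filters, DESeq2 1.42.0, fits of 2 stages, a replicate block, and libraries left out. The fit was tested on simulated data. Ratios of genes were compared by exact permutation in scipy, adjusted over 18 tests. No pair of libraries agreed within sampling noise (lowest chi-square per degree of freedom 43.7).

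Names and overlaps of genes come from RefSeq (assembly ARS-UI_Ramb_v3.0), whose coordinates were used to find the overlaps. Members and lists were chosen with earlier results of these data known. All 37 genes are described. Of each other list, up to 2 genes with the largest rise and up to 2 with the largest fall among genes called between GD144 and GD100, with at least 1 CPM in the higher stage, are named, except a few that are not reported here, and others were named after their values were seen.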

Additional observations from a re-analysis of the deposited data

Results flagged for a closer look

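In 5 of 111 sets of values (37 genes in 3 stages) 1 library stood apart from its stage by Dixon's criterion, or 4.5%, while chance gives about 1 in 20. COL4A1 had 142 CPM in GD124 replicate 3, against 59.2 to 82.7 CPM in the other 4 GD124 libraries. MMP2 had 17 CPM in the same library, against 5.32 to 6.66 CPM in the others, and 12.6 CPM in GD100 replicate 2, against 3.95 to 5.4 CPM in the other GD100 libraries. RGS5 had 26.5 CPM in GD124 replicate 4, against 2.09 to 5.58 CPM in the other GD124 libraries. THY1 had 9.23 CPM in GD144 replicate 1, against 1.41 to 3.09 CPM in the other 5 GD144 libraries.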

How the results depend on the processing

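Of the 49 calls of the 37 genes in the 3 comparisons, 28 were made under every alternative run, among them COL6A1, FBLN5, PDGFRA, RGS5, DES and TIMP3 at GD144 against GD100. Without 1 library at a time, the number of the 37 called was 6 to 11 for GD124 against GD100, 9 to 17 for GD144 against GD124, 22 to 29 for GD144 against GD100 and 0 to 1 for the difference between intervals, while 4186 to 6227, 3718 to 5044 and 8498 to 9292 genes of the whole table were called in the 3 pairwise comparisons. The 6 came without GD100 replicate 3 or GD124 replicate 3, and the 9 without GD124 replicate 4 or 5; the lowest counts of the whole table came without GD100 replicate 3 and GD124 replicate 5 too. Scaling by total counts alone called 6 for GD124 against GD100 (4 higher, 2 lower) and moved the median of all genes to -0.16; over the whole table it gave 1808 higher and 4045 lower, against 2825 and 2948, and for GD144 against GD124 2520 and 2139, against 2046 and 2617. The replicate block called 9 for GD144 against GD124, but the numbers do not pair the libraries: 13 pairs with the same number had correlations of -0.21 to 0.2, and 1 of 15 libraries correlated best with its own number. For the difference between intervals DESeq2 called 1 of the 37 and a fit in which GD100 replicate 1 stood alone for its stage 2, SPARC and FBN1; that fit called 2906 genes for GD124 against GD100. The cause of these shifts was not tested.

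Directions that turned belonged to uncalled log2 differences, except LRAT in GD144 against GD100, at 0.64 with GD100 replicate 1 alone. That setting also turned, for GD124 against GD100, COL5A2 (0.69), COL4A1 (0.61), POSTN (0.75), PDGFRB (0.13), NGFR (1.02), ACTA2 (0.46), VIM (-0.26), LRAT (0.74) and TIMP2 (-0.13), and for GD144 against GD100 COL5A1 (-0.32) and FBN1 (-0.24). Total counts turned COL4A2 (-0.13), TAGLN (-0.15) and VIM (-0.04) for GD124 against GD100, and COL5A1 (-0.06) and ACTA2 (-0.06) for GD144 against GD100. The replicate block turned COL5A2 (0.07), POSTN (0.05) and NGFR (0.15) for GD124 against GD100, and ACTA2 (-0.03) and TIMP2 (0.01) for GD144 against GD100. NGFR for GD124 against GD100, at 0.00, turned under TMM without the 20 most abundant genes, without a filter and with the libraries of 2 stages (0.00 in each). Without 1 library, GD124 against GD100 ran from -0.15 to 0.17 for TAGLN, -0.19 to 0.13 for COL5A2, -0.3 to 0.18 for COL4A1, -0.32 to 0.41 for POSTN, -0.23 to 0.4 for NGFR, -0.29 to 0.02 for ACTA2, -0.03 to 0.59 for LOX, -0.05 to 0.13 for COL4A2 and -0.17 to 0.75 for MMP2. GD144 against GD124 ran from -0.06 to 0.11 for HGF, -0.3 to 0.14 for LRAT and -0.08 to 0.61 for THY1, and GD144 against GD100 from -0.1 to 0.24 for ACTA2, -0.31 to 0.04 for TIMP2 and -0.05 to 0.17 for COL5A1. Depth limits RGS5 and TIMP3 at GD100, where single libraries held 1 to 18 and 6 to 29 counts.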
